A study of Homo sapiens with 12 samples.

Results

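The keratin family was taken as every gene whose symbol is KRT followed by a number and at most a letter A, B or C, which gave 55 of the 29744 gene entries counted in this RNA-seq series. Of these, 29 encode type I and 26 type II keratins, and keratin-associated proteins and pseudogenes were left out by the rule. RNA came from MB157, an established triple negative breast cancer (TNBC) line driven by NOTCH signaling, and from MB157R, a derivative that grew out during 25 weeks in 1 µM of the gamma-secretase inhibitor (GSI) LY3039478, which blocks the release of the NOTCH1 intracellular domain (N1-ICD). MB157R iN1-ICD cells carried doxycycline-inducible N1-ICD, MB157R iEV cells an inducible empty vector, MB157 iSOX2 cells inducible SOX2 and MB157 iEV cells the empty vector, with 3 replicate libraries in each of the 4 groups. The treatment labels mark all 12 libraries, those with the empty vector included, as doxycycline treated. The dose recorded for them here is 1 µg/ml for 72 h, and the study describes induction for 72 h with doses up to this one. Transgenes were delivered by lentivirus, and the study gives its N1-ICD insert as human NOTCH1 without the extracellular part (DeltaE-NOTCH1). Whether GSI could act on this product was not tested here. MB157R is a single derivative of a single line, and no second resistant derivative was analysed here. Whether GSI was in the medium of MB157R cells at harvest is not given in the sources used here.

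Keratins are the intermediate filament proteins of epithelial cells. A type I (acidic) and a type II (basic) chain pair in equal amounts to build a filament, so that keratins are usually expressed in partner pairs that mark the kind of epithelium. KRT8 and KRT18, with KRT7 and KRT19, are typical of simple and luminal epithelium, KRT5 and KRT14 of the basal layer and of mammary basal cells, KRT6, KRT16 and KRT17 of wounded or hyperproliferating epithelium, and others of cornifying layers, cornea, mucosa and hair. In breast cancer, KRT5, KRT14 and KRT17 are used as markers of basal-like tumors.

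Libraries held between 32773820 and 49055208 estimated counts. Levels are given as CPM, counts scaled to library size with TMM factors over all 12 libraries, with the mean ± SD of 3 libraries, and as CPM per kb of transcript where different genes are compared. The induced genes behaved as labelled: NOTCH1 was at 2617, 1760 and 2588 CPM in MB157R iN1-ICD, against 102, 85.4 and 90.1 CPM in MB157R iEV, and SOX2 at 291 to 335 CPM in MB157 iSOX2, against 6.62 to 7.69 CPM in MB157 iEV. All 8 epithelial markers examined reached 1 CPM in every group. Of 8 fibroblast markers, 4 reached 1 CPM in MB157R iN1-ICD (summed level 160 to 169 CPM), 4 in MB157R iEV (76.6 to 89.7 CPM), 2 in MB157 iSOX2 (69.3 to 75.9 CPM) and 2 in MB157 iEV (42.6 to 50.2 CPM), and DCN had no count in either MB157R group. Of 5 endothelial markers, 3 reached 1 CPM in MB157R iN1-ICD (summed level 44.9 to 49.8 CPM), 2 in MB157R iEV (4.24 to 4.70 CPM), 3 in MB157 iSOX2 (103 to 112 CPM) and 2 in MB157 iEV (7.46 to 8.32 CPM). Of 6 leukocyte markers, 1 reached 1 CPM in MB157R iN1-ICD (2.69 to 3.44 CPM), 0 in MB157R iEV (0.367 to 0.436 CPM), 2 in MB157 iSOX2 (7.79 to 9.51 CPM) and 1 in MB157 iEV (36.3 to 39.9 CPM), while CD3E had no count in any library. The part of such cells or programs in the keratin levels was not tested. In bulk RNA, fewer cells with a keratin and less of it per cell cannot be told apart.

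Of the 55 genes, 18 reached a mean of 10 CPM in at least 1 group, 4 reached 1 to 10 CPM (KRT6C, KRT9, KRT12 and KRT86) and 33 stayed under 1 CPM. Keratin expression was broadest with N1-ICD: 18 keratins had a mean of at least 10 CPM in MB157R iN1-ICD, 11 in MB157R iEV, 13 in MB157 iSOX2 and 13 in MB157 iEV. Of the 18, 15 had their highest mean in MB157R iN1-ICD, and the other ones, KRT7, KRT10 and KRT80, in MB157R iEV. KRT34, KRT75 and KRT81 reached 10 CPM only in MB157R iN1-ICD, so their highest group was fixed by the way the 18 were chosen. The same counts over all genes were not made, so these numbers only describe the keratins.

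To ask how the keratins differ between the resistant and the parental line and how they respond to N1-ICD and to SOX2, 3 comparisons were made with edgeR's quasi-likelihood test. Genes with an adjusted p (Benjamini-Hochberg, over every gene in the comparison) under 0.05 count as called. In MB157R iN1-ICD against MB157R iEV, 20 keratins were tested, of which 17 were called higher and 3 lower, while 29.8% of all tested genes were called higher and 29.3% lower. A rise of at least 2-fold was called for 14 of these keratins, against 4.48% of all tested genes, and a fall of that size for 0, against 0.687%. In MB157R iEV against MB157 iEV, 15 keratins were tested, with 10 called higher (45.0% of all tested genes) and 5 lower (45.3%), and 9 of the rises and 4 of the falls were at least 2-fold (20.7% and 18.1% of all tested genes). In MB157 iSOX2 against MB157 iEV, 15 keratins were tested, with 2 called higher (32.5% of all tested genes), 11 lower (33.9%) and 2 not called, and 6 of the falls but 0 of the rises were at least 2-fold (2.60% and 3.46% of all tested genes). The median log2 fold change of the tested keratins was 3.31 with N1-ICD, 1.61 in the resistant line and -0.96 with SOX2, while the median over all tested genes was -0.00 in each. Keratins passed the low-expression filter partly because a group expressed them, so these counts describe the members that passed. The libraries of MB157R iEV and of MB157 iEV each serve in 2 of the comparisons, and the values of those comparisons are therefore not independent.

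**Figure D1:**
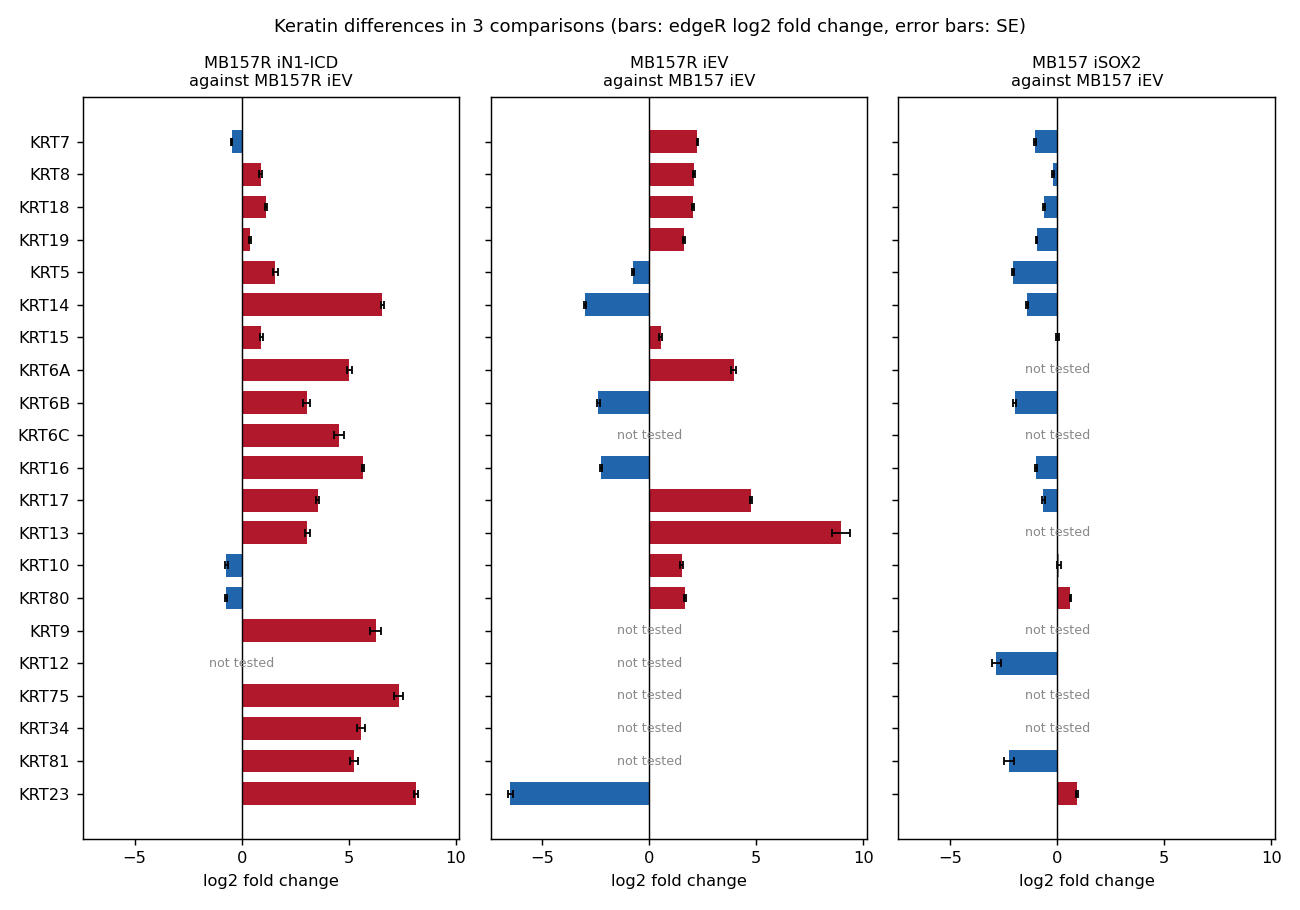
Log2 fold changes (edgeR, error bars SE) of the 21 keratins tested in at least 1 comparison, in MB157R iN1-ICD against MB157R iEV (left), MB157R iEV against MB157 iEV (middle) and MB157 iSOX2 against MB157 iEV (right). Red bars were called higher and blue bars lower, and uncalled bars are near 0. The N1-ICD panel runs from -0.73 to 8.14 and the SOX2 panel from -2.84 to 0.94.

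The NOTCH signature of the study contains KRT5, KRT6A, KRT6B, KRT6C and KRT75. It was chosen partly on the iN1-ICD libraries, so the rise of these 5 with N1-ICD is not independent evidence. Among the 15 tested keratins outside it, 12 were called higher and 3 lower with N1-ICD, with a median log2 fold change of 3.06. Of all tested genes, 29.8% were called higher and 29.3% lower. KRT9, KRT23, KRT34 and KRT81 averaged under 1 CPM in MB157R iEV and passed the filter through their MB157R iN1-ICD levels. The count and the median outside the signature are therefore not free of selection either.

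Promoter sequence from RefSeq (GRCh38.p14) was available for 34 of the 55 keratins by symbol. Shown here are the 250 bases before the start site of 3 members that were among those called higher with N1-ICD and of KRT10, which was called lower, so that the sequences beside the transcripts can be read with their values. Capitals mark every match, on either strand, to the motifs searched. These were the strict form of the TATA box, TATAAA, its looser form with shifted letters, ATAAAA, which can overlap the strict form, then TGGGAA, the core of the site of RBPJ, the DNA-binding partner of N1-ICD, then ATTGTT, a core of SOX sites, and lastly TGANTCA, the site of AP-1.
KRT75 (chr12:52434372-52434621, minus strand): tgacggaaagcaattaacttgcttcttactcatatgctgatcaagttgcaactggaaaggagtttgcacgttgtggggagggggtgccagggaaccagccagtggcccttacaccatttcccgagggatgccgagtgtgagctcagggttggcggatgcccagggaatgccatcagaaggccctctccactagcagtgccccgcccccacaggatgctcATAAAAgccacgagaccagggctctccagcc
KRT5 (chr12:52520395-52520644, minus strand): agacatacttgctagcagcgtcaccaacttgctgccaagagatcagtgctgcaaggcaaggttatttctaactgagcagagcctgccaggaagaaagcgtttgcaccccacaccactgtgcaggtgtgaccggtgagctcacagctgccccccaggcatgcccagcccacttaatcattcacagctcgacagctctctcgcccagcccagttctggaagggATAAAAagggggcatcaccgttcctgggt
KRT9 (chr17:41572060-41572309, minus strand): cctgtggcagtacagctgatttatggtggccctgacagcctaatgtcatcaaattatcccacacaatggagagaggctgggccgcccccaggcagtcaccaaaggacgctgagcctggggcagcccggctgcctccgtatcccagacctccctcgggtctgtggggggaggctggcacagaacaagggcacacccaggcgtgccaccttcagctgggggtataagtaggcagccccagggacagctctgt
KRT10 (chr17:40822615-40822864, minus strand): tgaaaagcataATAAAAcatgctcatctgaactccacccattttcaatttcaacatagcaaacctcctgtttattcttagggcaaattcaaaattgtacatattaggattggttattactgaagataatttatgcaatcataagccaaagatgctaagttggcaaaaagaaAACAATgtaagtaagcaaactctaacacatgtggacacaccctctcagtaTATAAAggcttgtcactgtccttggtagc
A TATA-like match began 31 bases before the start in KRT75, 29 in KRT5 and 29 in KRT10, and KRT9 had no match to any of the motifs. KRT10 has another ATAAAA match on the same strand, and holds an ATTGTT match on the other strand that begins 79 bases before its start. Over all 35116 promoters of the table, windows of this length held TATAAA in 10.7%, ATAAAA in 14.8%, TGGGAA in 20.8%, ATTGTT in 8.98% and TGANTCA in 6.57%. Of the 34 keratin windows, 20 held TATAAA, 22 ATAAAA, 5 TGGGAA, 2 ATTGTT and 0 TGANTCA. These matches describe letters only. The windows of KRT8 and KRT34, also called higher, lie inside the annotated spans of these genes and are not shown.

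The simple epithelial keratins were the most abundant part of the family outside the N1-ICD libraries, and KRT7, KRT8, KRT18 and KRT19 were all higher in MB157R than in MB157. KRT7, a type II keratin of glandular ducts, was at 1479, 1523 and 1499 CPM in MB157R iEV, against 322, 318 and 316 CPM in MB157 iEV (log2 fold change 2.24 ± 0.03 (SE), adjusted p = 2.6e-15). KRT19, a small type I keratin without most of the tail domain, was at 1498, 1477 and 1501 CPM in MB157R iEV, against 488, 487 and 494 CPM in MB157 iEV (1.61 ± 0.03, adjusted p = 4.0e-14). For both genes the replicates of a group lay within a few percent of each other and the groups were far apart. The obligate partners KRT8 and KRT18 differed by nearly the same factor. KRT8 was at 957, 933 and 901 CPM in MB157R iEV, against 225, 210 and 231 CPM in MB157 iEV (2.07 ± 0.04, adjusted p = 4.9e-14), and KRT18 at 616, 633 and 558 CPM, against 141, 151 and 144 CPM (2.06 ± 0.05, adjusted p = 1.9e-13).

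N1-ICD and SOX2 moved these 4 genes by smaller amounts. With N1-ICD, KRT8 was at 1780, 1536 and 1854 CPM (0.90 ± 0.06, adjusted p = 8.4e-07), KRT18 at 1344, 1197 and 1417 CPM (1.14 ± 0.07, adjusted p = 1.9e-07) and KRT19 at 1973, 1801 and 1990 CPM (0.37 ± 0.05, adjusted p = 5.3e-05), all above the MB157R iEV libraries. KRT7 went the other way, at 1074, 1036 and 1123 CPM in MB157R iN1-ICD, below its MB157R iEV levels (-0.47 ± 0.04, adjusted p = 5.1e-06). With SOX2 in MB157 all 4 were lower. KRT7 was at 153, 155 and 157 CPM in MB157 iSOX2 (-1.04 ± 0.03, adjusted p = 8.8e-15) and KRT19 at 244, 257 and 253 CPM (-0.96 ± 0.03, adjusted p = 3.4e-14). KRT18 was at 92.2, 88.9 and 99.2 CPM in MB157 iSOX2 (-0.63 ± 0.04, adjusted p = 7.6e-10) and KRT8 at 187, 197 and 191 CPM (-0.21 ± 0.03, adjusted p = 7.2e-05). The falls of these partners with SOX2 were of unlike size, a difference that was not itself tested. The ratio of KRT8 to KRT18 per kb was 1.63 ± 0.11 in MB157 iSOX2 and 1.21 ± 0.10 in MB157 iEV, against 1.03 ± 0.02 in MB157R iN1-ICD and 1.23 ± 0.06 in MB157R iEV (SD, n = 3 each). Of the 60-base stretches of the canonical transcripts, 29.8% for KRT8 and 21.2% for KRT18 also occur in other annotated genes, among them processed pseudogenes such as KRT8P3, so a part of their reads could be assigned to either. KRT20, an intestinal keratin, stayed under 1 CPM, with 29 counts over the MB157 iSOX2 libraries, against 1 count over those of MB157 iEV (ratio 25.8, 95% exact binomial interval 4.27 to 1053, for counting error only).

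The basal keratins KRT5 and KRT14 were lower in the resistant line and lower with SOX2, and both were higher with N1-ICD. KRT5, the type II keratin of the basal layer, was at 530, 527 and 462 CPM in MB157R iEV, against 851, 902 and 854 CPM in MB157 iEV (-0.78 ± 0.05, adjusted p = 6.2e-09). KRT14, its usual type I partner, was at 7.24, 6.78 and 7.68 CPM in MB157R iEV, against 55.5, 59.6 and 60.8 CPM in MB157 iEV (-3.01 ± 0.06, adjusted p = 5.8e-14). The partners differed in the size of the fall, with KRT14 8.10-fold lower and KRT5 1.71-fold lower in MB157R iEV than in MB157 iEV. Per kb, KRT5 exceeded KRT14 by 51.5 ± 6.70 times in MB157R iEV and by 10.8 ± 0.51 times in MB157 iEV (SD, n = 3 each).

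With N1-ICD, KRT14 was at 692, 629 and 745 CPM, 95.2-fold above MB157R iEV (6.58 ± 0.08, adjusted p = 1.3e-12), and KRT5 at 1637, 1245 and 1647 CPM, 2.98-fold above it (1.58 ± 0.10, adjusted p = 3.0e-07). KRT5 exceeded KRT14 per kb by 1.60 ± 0.14 times in MB157R iN1-ICD, the smallest ratio of the 4 groups. With SOX2, KRT5 was at 192, 215 and 222 CPM, 4.14-fold below MB157 iEV (-2.05 ± 0.04, adjusted p = 6.8e-16), and KRT14 at 21.2, 22.003 and 23.4 CPM (-1.40 ± 0.05, adjusted p = 6.2e-13). KRT5 ranked 45 by size of fall among the 3698 genes called lower with SOX2. KRT15, a type I keratin of basal and stem cells of stratified epithelia, varied less. It was at 35.6, 43.5 and 40.2 CPM in MB157R iN1-ICD, against 20.7, 21.6 and 20.9 CPM in MB157R iEV (0.92 ± 0.07, adjusted p = 1.4e-06), and MB157R iEV was above the 15.1, 13.8 and 15.0 CPM of MB157 iEV (0.53 ± 0.06, adjusted p = 2.7e-06). With SOX2 it was at 15.2, 13.1 and 15.4 CPM, overlapping MB157 iEV (-0.00 ± 0.07, adjusted p = 0.974).

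All 5 keratins of wounded and hyperproliferating epithelium were called higher with N1-ICD, by log2 fold changes from 3.04 to 5.67, as were 29.8% of all tested genes. KRT6A, KRT6B and KRT6C belong to the NOTCH signature, chosen partly on the iN1-ICD libraries. KRT6C also averaged under 1 CPM in MB157R iEV. The count is therefore not free of selection. KRT17, a type I keratin of wounded skin and of basal-like breast cancer, was at 5886, 4810 and 6045 CPM in MB157R iN1-ICD, against 484, 467 and 485 CPM in MB157R iEV (3.55 ± 0.08, adjusted p = 1.5e-10). In the resistant line it was already 26.7-fold above the 17.8, 18.5 and 17.4 CPM of MB157 iEV (4.74 ± 0.04, adjusted p = 5.9e-17), and with SOX2 it was at 11.9, 12.2 and 10.2 CPM (-0.64 ± 0.07, adjusted p = 1.1e-06). KRT16, another type I keratin induced on injury, showed the opposite difference between the lines. It was at 485, 445 and 486 CPM in MB157R iN1-ICD, against 9.24, 9.47 and 9.34 CPM in MB157R iEV (5.67 ± 0.05, adjusted p = 3.3e-13). The MB157R iEV libraries were 4.79-fold below the 43.5, 46.3 and 44.5 CPM of MB157 iEV (-2.26 ± 0.05, adjusted p = 2.2e-13), and MB157 iSOX2 was also lower than MB157 iEV, at 22.7, 21.995 and 22.7 CPM (-0.99 ± 0.05, adjusted p = 1.5e-11). KRT14, KRT16 and KRT17 follow each other in the keratin order of chromosome 17, and KRT17 was the only one of these 3 neighbours that was higher in MB157R iEV than in MB157 iEV.

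The type II keratins KRT6A, KRT6B and KRT6C, which pair with KRT16 and KRT17, changed places between the lines. KRT6A was at 23.3, 21.4 and 22.2 CPM in MB157R iEV, against 1.45, 1.22 and 1.74 CPM in MB157 iEV (3.93 ± 0.11, adjusted p = 9.4e-13). KRT6B was at 7.78, 8.55 and 6.67 CPM in MB157R iEV, against 39.6, 41.7 and 39.1 CPM in MB157 iEV (-2.39 ± 0.08, adjusted p = 4.2e-12). The summed level of the 3 genes was 30.3 ± 1.10 CPM in MB157R iEV and 42.6 ± 0.86 CPM in MB157 iEV, and KRT6A made up 73.8 ± 2.77% of it in MB157R iEV and 3.46 ± 0.67% in MB157 iEV (SD, n = 3 each). With N1-ICD both genes were higher. KRT6A was at 789, 602 and 795 CPM in MB157R iN1-ICD (5.03 ± 0.11, adjusted p = 7.3e-11) and KRT6B at 68.7, 47.1 and 71.4 CPM (3.04 ± 0.15, adjusted p = 5.4e-08), and KRT6A made up 91.4 ± 0.55% of the sum.

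With SOX2, KRT6B was at 9.60, 9.63 and 10.9 CPM, 4.00-fold below MB157 iEV (-1.995 ± 0.06, adjusted p = 3.5e-14), while KRT6A, which was not in the filtered table of that comparison, was at 1.04, 1.25 and 1.47 CPM and overlapped MB157 iEV. KRT6C averaged 6.21 ± 1.26 CPM in MB157R iN1-ICD, 0.263 ± 0.014 CPM in MB157R iEV, 0.234 ± 0.151 CPM in MB157 iSOX2 and 0.990 ± 0.294 CPM in MB157 iEV, and the N1-ICD difference was called (4.55 ± 0.24, adjusted p = 6.2e-08). The 3 genes are near copies: 33.1% of the 60-base stretches of KRT6A, 42.0% of KRT6B and 48.9% of KRT6C occur in another gene, mostly in each other. The split of reads between them is therefore an estimate of Salmon, and KRT6C, whose level was a small part of the sum, is uncertain. In the libraries the ratio of KRT6A to KRT6B lay between 11.1 and 12.8 in MB157R iN1-ICD, 2.51 and 3.34 in MB157R iEV, 0.109 and 0.135 in MB157 iSOX2, and 0.0293 and 0.0446 in MB157 iEV, without overlap between groups.

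Keratins of suprabasal, mucosal and specialised epithelia did not move as a block. KRT13, a type I keratin of mucosal suprabasal layers, was at 80.5, 87.2 and 82.0 CPM in MB157R iN1-ICD, against 12.3, 10.2 and 7.73 CPM in MB157R iEV (3.06 ± 0.12, adjusted p = 5.9e-09). In MB157 it was almost without reads, with 0 counts over the 3 iSOX2 libraries and 2 counts over the 3 iEV libraries, and the 1323 counts of MB157R iEV gave a ratio of 575 to MB157 iEV (95% exact binomial interval 159 to 4757, for counting error only, adjusted p = 1.9e-10). A count of 0 over the MB157 iSOX2 libraries allows a level of up to 0.0231 CPM (3 counts). KRT10, the type I keratin of cornifying epidermis, and KRT80, a widely expressed type II keratin, were the ones of this class that fell with N1-ICD. KRT10 was at 25.6, 26.3 and 25.2 CPM in MB157R iN1-ICD, against 43.4, 45.8 and 38.7 CPM in MB157R iEV (-0.72 ± 0.06, adjusted p = 4.5e-06), and KRT80 at 127, 125 and 121 CPM, against 207, 210 and 206 CPM (-0.73 ± 0.04, adjusted p = 3.4e-08).

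Both genes were higher in the resistant than in the parental line. KRT10 in MB157R iEV stood above the 14.7, 17.004 and 13.5 CPM of MB157 iEV (1.502 ± 0.08, adjusted p = 1.3e-09), and KRT80 above the 66.9, 62.5 and 68.8 CPM of MB157 iEV (1.66 ± 0.04, adjusted p = 2.4e-13). With SOX2, KRT80 was at 100.4, 102 and 100.5 CPM, above MB157 iEV (0.62 ± 0.04, adjusted p = 4.2e-10), while KRT10, at 14.4, 16.7 and 16.6 CPM, overlapped MB157 iEV (0.08 ± 0.08, adjusted p = 0.407). KRT9, the type I keratin of palm and sole epidermis, and KRT12, that of the cornea, were rare. KRT9 averaged 7.75 ± 0.51 CPM in MB157R iN1-ICD and 0.0956 ± 0.062 CPM in MB157R iEV, a difference of 81.1-fold (6.27 ± 0.26, adjusted p = 8.6e-09), with 1.04 ± 0.30 CPM in MB157 iSOX2 and 0.740 ± 0.270 CPM in MB157 iEV. KRT12 was the reverse, a transcript of MB157: it had 3 counts in MB157R iN1-ICD and 1 count in MB157R iEV, and averaged 0.574 ± 0.120 CPM in MB157 iSOX2 and 4.11 ± 0.39 CPM in MB157 iEV. The SOX2 difference was called (-2.84 ± 0.20, adjusted p = 2.1e-09), and it was the fall with the largest fold change among the keratins tested in that comparison. KRT12 passed the filter there through its MB157 iEV level, so its fall and this rank are not free of selection. The ratio of MB157R iEV to MB157 iEV, from 1 against 478 counts, was 0.00182 (95% exact binomial interval 4.6e-05 to 0.0102).

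Keratins of hair and of the hair follicle had few counts outside MB157R iN1-ICD. The 26 genes of the hair, inner root sheath and companion layer classes had 32392 counts in the MB157R iN1-ICD libraries, 352 in MB157R iEV, 242 in MB157 iSOX2 and 676 in MB157 iEV, and 17, 10, 8 and 9 of them had any count. Most of the N1-ICD counts came from 3 genes. KRT75, a type II keratin of the companion layer, was at 235, 164 and 240.2 CPM in MB157R iN1-ICD, against 1.05, 1.86 and 1.06 CPM in MB157R iEV, a 161-fold difference (7.35 ± 0.21, adjusted p = 5.2e-10). It averaged 0.0689 ± 0.038 CPM in MB157 iSOX2 and 0.336 ± 0.163 CPM in MB157 iEV, and none of its 60-base stretches occurs in another gene. KRT34, a type I hair keratin, was at 23.3, 29.1 and 21.3 CPM in MB157R iN1-ICD, against 0.482, 0.416 and 0.624 CPM in MB157R iEV (5.58 ± 0.18, adjusted p = 1.2e-09). It had no count in any MB157 library, so that its 68 counts in MB157R iEV put it at least 19.7-fold higher than in MB157 iEV, with 3 counts over the MB157 iEV group as the floor.

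KRT81, a type II hair keratin, was at 12.1, 13.9 and 11.2 CPM in MB157R iN1-ICD, against 0.436, 0.294 and 0.249 CPM in MB157R iEV (5.25 ± 0.18, adjusted p = 2.5e-09). Unlike KRT34 it was present in the parental line, at 0.792, 0.454 and 1.18 CPM in MB157 iSOX2, against 3.64, 4.06 and 3.84 CPM in MB157 iEV (-2.26 ± 0.23, adjusted p = 3.2e-07). Its near copy KRT86 averaged 0.598 ± 0.177 CPM in MB157R iN1-ICD, 0.132 ± 0.077 CPM in MB157R iEV, 0.604 ± 0.097 CPM in MB157 iSOX2 and 1.29 ± 0.24 CPM in MB157 iEV. The canonical transcripts of KRT81 and KRT86 share 41.1% and 36.8% of their 60-base stretches with other genes, mostly with each other, so values as low as those of KRT86 are uncertain.

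KRT23, a type I keratin of epithelial tumors, moved by the largest factor of the family with N1-ICD. It was at 185.5, 185.5 and 189 CPM in MB157R iN1-ICD, against 0.665, 0.441 and 0.852 CPM in MB157R iEV, a 286-fold difference (8.14 ± 0.10, adjusted p = 1.3e-12), and ranked 10 by log2 fold change among the 3337 genes called higher. In MB157R iEV it was 92.3-fold below the 60.5, 55.6 and 64.5 CPM of MB157 iEV (-6.50 ± 0.12, adjusted p = 2.0e-14). Together with KRT80, it was also the keratin that rose with SOX2, at 112, 119.9 and 114 CPM in MB157 iSOX2 (0.94 ± 0.05, adjusted p = 2.8e-11). None of its 60-base stretches is found in another gene. The reads of KRT23 in MB157R iN1-ICD also differed little between replicates, while NOTCH1, KRT75 and KRT5 were lowest in replicate 2.

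The remaining 33 keratins stayed under 1 CPM in every group, with a highest group mean of 0.382 CPM, and 9 of them (KRT24, KRT25, KRT26, KRT28, KRT35, KRT71, KRT73, KRT76 and KRT85) had no count in any library. The epidermal keratins KRT1 and KRT2, partners of KRT10, had at most 2 and 4 counts in a library. Among those with at least 10 counts in some library, KRT4, the type II partner of KRT13, averaged 0.382 ± 0.036 CPM in MB157R iN1-ICD and 0.0383 ± 0.037 CPM in MB157R iEV, and KRT33B, a type I hair keratin, averaged 0.270 ± 0.017 CPM in MB157R iN1-ICD and 0.0447 ± 0.020 CPM in MB157R iEV. KRT38, another type I hair keratin, was seen only in MB157 libraries, with 32 counts over iSOX2 and 12 over iEV, while KRT32 and KRT78 had counts only in MB157R libraries. KRT79, KRT83 and KRT33A also stayed between 0 and 0.221 CPM in every group mean. When the filter was set at a mean count of at least 5, further members could be tested: 3 of 5 were called with N1-ICD (KRT4, KRT33B and KRT86, all higher), 7 of 7 between the lines (KRT34 and KRT75 higher in MB157R iEV, KRT6C, KRT9, KRT12, KRT81 and KRT86 lower) and 4 of 8 with SOX2 (KRT20 higher, KRT6C, KRT75 and KRT86 lower). Under this filter 27.6% of all tested genes were called higher and 25.3% lower with N1-ICD, 42.9% and 43.8% between the lines, and 28.4% and 27.9% with SOX2.

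The family lies in a cluster of 28 type I genes on chromosome 17 (chr17:40654665-41624575, GRCh38.p14) and a cluster of 27 genes on chromosome 12 (chr12:52168996-52952906), where KRT18, a type I gene, sits beside KRT8 at the edge. Within chromosome 17, KRT14, KRT16 and KRT17 at one end, KRT34 and KRT23 were each highest in MB157R iN1-ICD, while KRT24 to KRT28 had at most 7 counts in a library in any group. On chromosome 12, KRT75, KRT6B, KRT6C, KRT6A and KRT5 form an unbroken run of 5 genes that were all called higher with N1-ICD, and they are the 5 keratins of the NOTCH signature. Their neighbours on either side, KRT82 and KRT71, had at most 2 counts in any library. The signature was chosen partly on the iN1-ICD libraries, so the shared rise of the run is not independent evidence. Of all tested genes, 29.8% were called higher with N1-ICD.

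Summed over the family, keratins took 1.57 ± 0.15% of the counts of MB157R iN1-ICD libraries, 0.580 ± 0.016% of MB157R iEV, 0.125 ± 0.004% of MB157 iSOX2 and 0.234 ± 0.001% of MB157 iEV (SD, n = 3 each). The groups did not overlap. The make-up of this RNA also differed, and was compared per kb of transcript. In MB157R iN1-ICD, KRT17 alone was 38.0 ± 1.00% of the summed level per kb, followed by KRT19 with 14.3 ± 0.63% and KRT8 with 9.99 ± 0.07%. MB157R iEV was led by KRT19 with 29.8 ± 0.64% and KRT7 with 25.6 ± 0.52%, and MB157 iSOX2 by KRT19 with 26.6 ± 0.32% and KRT8 with 15.8 ± 0.29%. MB157 iEV was the one group led by a basal keratin, with KRT5 at 29.3 ± 0.78% and KRT19 at 26.7 ± 0.30%. Among the first 6 keratins in the order of levels per kb, the libraries of KRT8 and KRT18 and those of KRT5 and KRT7 overlapped in MB157R iN1-ICD, and those of KRT7 and KRT5 in MB157 iSOX2, so these neighbours are not ordered, whereas no neighbours overlapped in MB157R iEV or MB157 iEV.

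Type I and type II chains pair one to one in the filament, and their summed RNA was compared on that ground. Per kb, the ratio of type I to type II was 2.47 ± 0.03 in MB157R iN1-ICD, 1.07 ± 0.01 in MB157R iEV, 1.07 ± 0.01 in MB157 iSOX2 and 0.770 ± 0.007 in MB157 iEV (SD, n = 3 each). In MB157R iN1-ICD the summed type I level was 6888 ± 638 CPM per kb, of which KRT17 made up 3679 ± 443 CPM per kb. The summed type II level was 2786 ± 291 CPM per kb. These are RNA levels, and the amounts of the protein chains were not measured here.

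The inductions of N1-ICD in MB157R and of SOX2 in MB157 share no library, so the difference of their effects was tested directly in 1 fit over all 12 libraries. Of 14 keratins tested, N1-ICD had the higher effect for 12 and the lower for 2, while 32.2% and 30.8% of the 10024 genes tested were called in these directions. A difference of at least 2-fold was called for 10 keratins in the first direction and 1 in the second, against 4.67% and 3.29% of the genes tested. The difference was largest for KRT14 (7.99 ± 0.09 on the log2 scale, adjusted p = 4.3e-19), KRT81 (7.52 ± 0.32, adjusted p = 3.6e-12) and KRT23 (7.21 ± 0.12, adjusted p = 2.2e-17). KRT14 and KRT81 went up with N1-ICD and down with SOX2, and so did KRT5, KRT6B, KRT8, KRT16, KRT17, KRT18 and KRT19, whereas KRT23 was higher with both. KRT80 (-1.34 ± 0.05, adjusted p = 6.5e-13) and KRT10 (-0.79 ± 0.12, adjusted p = 2.2e-05) had the lower effect with N1-ICD. KRT7 was lower in both inductions, less so with N1-ICD (0.58 ± 0.05, adjusted p = 1.6e-08). KRT23 and KRT81 averaged under 1 CPM in MB157R iEV and passed the filter through their MB157R iN1-ICD levels. KRT81 also averaged under 1 CPM in MB157 iSOX2 and passed the SOX2 filter through MB157 iEV. KRT5 and KRT6B belong to the NOTCH signature, chosen partly on the iN1-ICD libraries. The differences of these genes, and the counts that include them, are therefore not free of selection. The inductions were made in different lines, so that transgene and line cannot be told apart in these differences.

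Replicates were close for most members, but in MB157R iN1-ICD replicate 2 was the lowest of 3 libraries for 11 of the 18 keratins that reached 10 CPM, and it also had the lowest NOTCH1 level. KRT75, KRT6B, KRT5 and KRT6A were lowest in it, whereas KRT15 and KRT34 were highest. Whether the NOTCH1 level plays a part in this spread was not tested. Leaving out any library left every count of called keratins as it was.

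Other intermediate filament genes, keratin linkers and transcription factors known to act on keratin genes were followed as lists. Their counts are to be read beside all tested genes, of which 29.8% were called higher and 29.3% lower with N1-ICD. Between the lines these shares were 45.0% and 45.3%, and with SOX2 32.5% and 33.9%. Genes named with values had a mean of at least 10 CPM in the comparison, so larger changes of rarer genes can be missing. Of 16 other intermediate filament genes, 8 were tested with N1-ICD, with 2 called higher and 6 lower and a median log2 fold change of -0.43. SYNM, which encodes synemin, was at 97.6 ± 7.67 CPM in MB157R iN1-ICD and 27.5 ± 0.98 CPM in MB157R iEV (1.84 ± 0.06, adjusted p = 1.4e-09), and NES, which encodes nestin, at 34.7 ± 2.58 CPM in MB157R iN1-ICD and 13.2 ± 0.85 CPM in MB157R iEV (1.40 ± 0.07, adjusted p = 7.0e-08). LMNA, which encodes lamins A and C of the nucleus, was lower (-0.52 ± 0.06, adjusted p = 2.0e-05). VIM, which encodes vimentin, the filament protein of mesenchymal cells, was lower with N1-ICD (466 ± 19.7 CPM, against 639.9 ± 16.2 CPM in MB157R iEV, adjusted p = 7.1e-06) and with SOX2 (481 ± 8.69 CPM, against 642 ± 6.53 CPM in MB157 iEV, adjusted p = 7.6e-10). VIM did not pass the test between MB157R iEV and MB157 iEV (-0.00 ± 0.03, adjusted p = 0.977), while 8 filament genes were tested there, with 3 called higher and 4 lower and a median of -0.45. Among those of at least 10 CPM, LMNB2 and LMNB1 led the rises in that comparison (0.72 ± 0.03 and 0.68 ± 0.04), and SYNM and LMNA the falls (-1.02 ± 0.06 and -0.89 ± 0.03). Rarer members moved more, as the tested filament genes ran from -3.81 to 3.81. With SOX2, 3 of 7 were called higher and 4 lower with a median of -0.20, among them BFSP1 (0.61 ± 0.06), SYNM (0.14 ± 0.05, adjusted p = 0.0149) and LMNB1 (-0.57 ± 0.04).

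Of 21 keratin-binding linkers, 19 were tested with N1-ICD, with 5 called higher and 6 lower and a median of -0.01. PKP1, which encodes the desmosomal protein plakophilin 1, was at 481 ± 66.4 CPM in MB157R iN1-ICD and 68.8 ± 5.04 CPM in MB157R iEV (2.81 ± 0.09, adjusted p = 1.7e-09), and DSP, which encodes desmoplakin, was also higher (0.81 ± 0.07). PLEC, which encodes plectin, was lower (-1.50 ± 0.11), as was AHNAK (-0.52 ± 0.14). Between MB157R iEV and MB157 iEV, 10 of 19 linkers were called higher and 7 lower, with a median of 0.32. DSP was at 235 ± 20.2 CPM in MB157R iEV and 1555 ± 24.0 CPM in MB157 iEV (-2.72 ± 0.06, adjusted p = 4.6e-14) and PKP1 was lower as well (-1.15 ± 0.06), while PKP2 (2.96 ± 0.05) and SFN (2.91 ± 0.04), which encodes 14-3-3 sigma, a binding partner of KRT17 in mouse skin, were higher. With SOX2, 5 of 18 were called higher, led by PKP2 (1.99 ± 0.07) and DST (1.51 ± 0.05), and 7 lower, led by PKP1 (-0.88 ± 0.04) and SFN (-0.81 ± 0.05), with a median of -0.05.

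Of 31 transcription factors, 28 were tested between MB157R iEV and MB157 iEV, with 16 called higher and 11 lower and a median of 0.85. TP63, which encodes p63, a regulator of basal keratins such as KRT5 and KRT14, was at 236 ± 16.7 CPM in MB157R iEV and 0.0551 ± 0.035 CPM in MB157 iEV (adjusted p = 1.9e-16). Of the basal keratins, KRT5 and KRT14 were lower in MB157R iEV and KRT15 was higher. A part of TP63 in these levels was not tested. GATA3, a luminal factor, was at 33.6 ± 2.13 CPM in MB157R iEV and 0.0404 ± 0.037 CPM in MB157 iEV. ZNF750 and CEBPA, factors of epidermal differentiation, were lower (-7.23 ± 0.13 and -3.53 ± 0.14). With N1-ICD, 13 of 27 were called higher and 9 lower, with a median of 0.12. Among those of at least 10 CPM, GRHL3 (2.73 ± 0.13) and ETS1 (1.04 ± 0.04) led the rises, and FOSL1 (-0.87 ± 0.04) and ETS2 (-0.47 ± 0.04) the falls. The largest log2 fold change of the tested factors was 6.07, in a rarer gene. TP63 was at 175 ± 7.64 CPM in MB157R iN1-ICD. With SOX2, 11 of 24 were called higher and 8 lower, with a median of 0.09, led by KLF5 (2.05 ± 0.05) and EHF (1.96 ± 0.04) and by ZNF750 (-1.48 ± 0.07) and ETS1 (-1.42 ± 0.03).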

How the data were processed

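RNA-seq libraries of 12 cultures (4 groups of 3) were used. The authors mapped reads to hg38 with STAR and Salmon, with the reverse strand setting, and deposited a table of estimated counts per gene (not normalized). The annotation is not given in the sources used here. They also deposited 3 tables of log2 CPM after TMM scaling, of genes kept by their filter (mean TPM of at least 2, mean count of at least 5, no pseudogenes). Computing these log2 values anew gave a largest difference of 5.0e-14.

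Here the genes of each filtered table (11210, 11435 and 10904) were tested with edgeR's quasi-likelihood test on rounded estimated counts, 6 libraries per comparison (R 4.3.3, edgeR 4.0.16, limma 3.58.1), with library sizes from all entries, TMM factors and Benjamini-Hochberg adjustment. SE is the log2 fold change over the square root of the F statistic. The difference of inductions was fitted on 12 libraries. The p-values reflect only the spread among libraries, which may be technical where cultures were not independent. Depth was 32773820 to 49055208 counts, and a floor of 3 counts over a group is 0.0226 to 0.0260 CPM, for counting error only. Replicates differed by more than sampling noise. The test was first checked on simulated counts. CPM per kb used GENCODE v44 canonical transcripts, and 60-base stretches were compared over all transcripts of other genes. Keratins of at least 10 CPM in a group were named with each library's value, those of 1 to 10 CPM with means, and lower ones if they had at least 10 counts in a library; KRT1, KRT2, KRT82 and the 9 keratins with no count were named after their values were seen. List genes were named for the 2 largest called rises and falls with at least 10 CPM, with VIM. Members and lists were chosen with earlier results of these data known. The settings varied were the scaling (RLE factors, or totals only), the filter (a mean count of 5 or more, or none), the tool (DESeq2 1.42.0, limma-voom), a fit over all 12 libraries, the replicate block, a null of a 2-fold change, and each library left out.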

Additional observations from a re-analysis of the deposited data

How the results depend on the processing

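The counts of keratins called between MB157R iEV and MB157 iEV changed with the filter: 10 were called lower with a mean count of at least 5 and 14 without a filter, against 5 with the authors' filter, as more keratins were then tested (22 and 42, against 15), and all 5 remained called. The shares of all tested genes called lower were then 43.8% and 37.6%. With SOX2, testing against a 2-fold change left 0 keratins called higher and 5 called lower (2.57% and 1.77% of all tested genes). With N1-ICD that test left 0 called lower (0.303%). N1-ICD effects above those of SOX2 were called for 19 keratins with a mean count of at least 5, against 12, since 23 were tested (24.7% of all genes tested with that filter). Per kb instead of per CPM, the type I percent of the summed keratin level was 71.2% in MB157R iN1-ICD, 51.7% in MB157R iEV, 51.7% in MB157 iSOX2 and 43.5% in MB157 iEV, against 65.5%, 45.6%, 45.0% and 35.8%. Leaving out any library changed none of the 8 counts of called keratins. The difference of KRT15 with SOX2, not called in any setting, turned positive with RLE factors (0.000441), library totals alone (0.056), DESeq2 (0.000346), and on leaving out MB157 iEV replicate 1 or 3 or MB157 iSOX2 replicate 2, with a range of -0.043 to 0.072 over all libraries left out.

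Same-numbered replicates did not clearly deviate together: the correlations of their deviations from the group means lay between -0.17 and 0.078 over the 3 comparisons. With 3 libraries per group this check cannot exclude a pairing. With the replicate number as a block, the counts were 17 higher and 3 lower with N1-ICD, 10 and 5 in the resistant line, 2 and 11 with SOX2, and 12 and 2 for the difference of the inductions, the same keratins as without it. Depth limits the 33 keratins under 1 CPM, of which 9 had no count in any library.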

Other observations

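Genes outside the rule but with related names were looked at as well. Of 94 entries whose names start with KRTAP, most of which encode keratin-associated matrix proteins of the hair shaft, 3 reached 1 CPM in some group. KRTAP2-3 averaged 36.9 ± 2.98 CPM in MB157R iN1-ICD and 0.607 ± 0.106 CPM in MB157R iEV, and had 0 counts in the MB157 iSOX2 and MB157 iEV libraries. KRTAP3-1 averaged 2.82 ± 0.32 CPM in MB157R iN1-ICD, 0.0613 ± 0.017 CPM in MB157R iEV and 3.67 ± 0.34 CPM in MB157 iSOX2, and had 0 counts in MB157 iEV. KRT34, by comparison, had no count in any MB157 library. The third, the antisense entry KRTAP5-AS1, averaged 0.219 ± 0.034 CPM in MB157R iN1-ICD, 0.0371 ± 0.033 CPM in MB157R iEV, 6.76 ± 1.10 CPM in MB157 iSOX2 and 5.40 ± 0.31 CPM in MB157 iEV. KRTAP genes are often near copies of each other, so their counts are uncertain. These genes were chosen after their values were seen and were not tested.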
